A study of Arabidopsis thaliana with 12 samples.

Results

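The response of Arabidopsis seedling transcripts to oligomycin was compared between 4 h and 1 h of treatment, to find the genes whose response grew, faded or turned round over that time. For every probe set the difference between oligomycin and ethanol cultures at 1 h was subtracted from the same difference at 4 h, and the result is called the interaction here. All 12 of the 12 arrays of the series entered it, and 22746 probe sets were tested. Intact Col-0 seedlings were grown in shaken flasks of MS medium with sucrose until day 9, darkened for 24 h, treated in the dark and harvested whole. The 4 groups, each with 3 arrays labelled as biological replicates, were 10 µM oligomycin for 4 h, ethanol for 4 h, 10 µM oligomycin for 1 h and ethanol for 1 h. Ethanol is the solvent of the inhibitor, added to the control cultures in equal volume, so every group received it and every group had been kept in the dark. RNA came from whole seedlings, and no untreated or light-grown culture was among the arrays.

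Oligomycin binds the membrane part of the mitochondrial ATP synthase and stops it from making ATP with the proton gradient that respiration builds. With the synthase blocked the gradient is no longer spent there, electron flow slows, and ATP has to come from glycolysis. Plants answer disturbed mitochondria with a change of nuclear transcription known as the mitochondrial retrograde response, which raises external NAD(P)H dehydrogenases, glutathione transferases and UDP-glycosyltransferases among others.

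Values are array intensities, in the authors' units, and differences are given as log2(intensity + 16), where the added 16 makes changes of dim probe sets look smaller. A change is called where the adjusted p of limma (Benjamini-Hochberg over all 22746 probe sets) was under 0.05, and "rose" and "fell" are used of called changes only. Arrays of a group correlated with r between 0.975 and 0.993, with the lowest values in the second ethanol replicate at 1 h. The 3 oligomycin arrays at 4 h stood apart from the other 9 on the first principal component, which held 67.5% of the variance, and their median intensities of 36.2 to 37.4 lay below the 42.9 to 46.0 of the other arrays. The tissue itself could hardly be checked by markers: no green-tissue or seed-storage marker had a probe set with a single gene name, the only root marker, EXPA7, averaged 17.4, and 7 nuclear genes of the photosystems and antenna averaged between 35.8 and 1506. The precision of every value below is limited by 3 arrays per group.

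The oligomycin effect differed between 4 h and 1 h in 4043 probe sets, 17.8% of those tested. In 1637 probe sets (7.2%) the interaction was above 0 and in 2406 (10.6%) below 0, with medians of 0.95 and −0.70 over the called ones and of −0.05 over all tested. The largest changes lay on the upper side, where 163 probe sets had an interaction of at least 2, against 11 with −2 or less. At 4 h alone 8345 probe sets (36.7%) differed between oligomycin and ethanol, and at 1 h alone 783 (3.44%, with 2.3% above 0 and 1.14% below). The balance between the directions depended on how the arrays were scaled: 59.5% of called interactions were below 0 with the deposited values, 40.8% after each array was centred on its median, which moved the median interaction of all probe sets to 0.07, and 34.7% after scaling to the hybridisation controls, whose counts were 1559 above 0 and 829 below 0.

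Most called interactions belonged to responses that were called only at the later time. Late responses, called at 4 h and not at 1 h, made up 3496 (86.5%), of which 1224 were above 0 and 2272 below 0. In the 1224 the median effect was 1.00 at 4 h and 0.06 at 1 h. Each time was adjusted on its own, so a late response may hold a smaller effect at 1 h. WRKY53, for example, had an uncalled effect of 0.39 at 1 h, with groups that did not overlap. Grown responses, called at both times in the same direction and larger at 4 h, numbered 377 (9.32%), and 319 of them were above 0, with median effects of 2.35 at 4 h and 0.91 at 1 h. Faded responses, called at 1 h and smaller or no longer called at 4 h, were 44 (1.09%), and 14 (0.346%) turned, being called at both times in opposite directions. In the remaining 112 neither single-time effect was called. Read from the early side, 435 of the 783 probe sets called at 1 h (55.6%) had a called interaction, while 285 were called at both times in the same direction with no called difference between the effects, their median size being 0.89 at 4 h and 0.71 at 1 h. Single arrays of 1 h moved the rarer classes: grown responses numbered 241 without the third oligomycin replicate of 1 h, faded ones 67 without the third ethanol replicate of 1 h and 23 or 17 without the second or the third oligomycin replicate of 1 h, and turned ones 7, 4 and 3 without these same arrays.

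**Figure D1:**
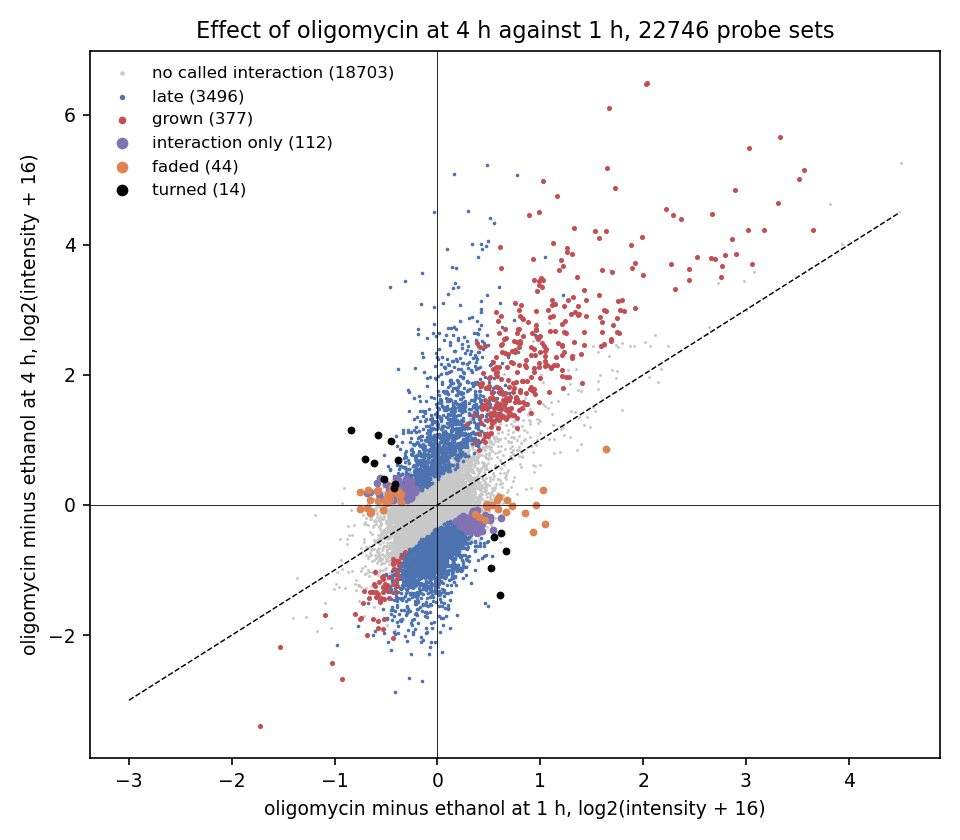
Effect of oligomycin at 4 h (vertical axis) against that at 1 h (horizontal axis) for 22746 probe sets, both as oligomycin minus ethanol on the scale of log2(intensity + 16), with the dashed line where both effects are equal. Late responses spread along the vertical axis, the 377 grown ones lie further from 0 than the line on both sides, and the 44 faded and 14 turned probe sets lie close to the centre.

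Changes over time were called almost only in the oligomycin cultures. Between 1 h and 4 h, 7662 probe sets (33.7%) changed in oligomycin and 2 (0.00879%) in ethanol by limma, where 2712 probe sets had an unadjusted p under 0.05 and 4 were called by the ordinary test without moderation. In 3839 of the 4043 called interactions (95.0%) a change over time was called only in the oligomycin cultures. It was called only in ethanol in 1, in both in none and in neither in 203. Each comparison was adjusted on its own, so a change uncalled in ethanol may still be there. AT3G46700, for example, had a called change of −0.72 in oligomycin and an uncalled one of 0.61 in ethanol. The named gene among the 2 changed in ethanol, AT5G57760, fell in the solvent control (change −1.47, adjusted p = 0.00749 by limma). It read 49.7, 48.5 and 41.6 in oligomycin and 35.6, 41.2 and 37.3 in ethanol at 4 h, against 118, 109.9 and 99.1 in oligomycin and 179.9, 105 and 126 in ethanol at 1 h. Its 4 h cultures were lower than its 1 h cultures with either addition, and its interaction of 0.47 was not called (0.63, adjusted p = 0.0339, without the second ethanol replicate of 1 h).

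**Figure D2:**
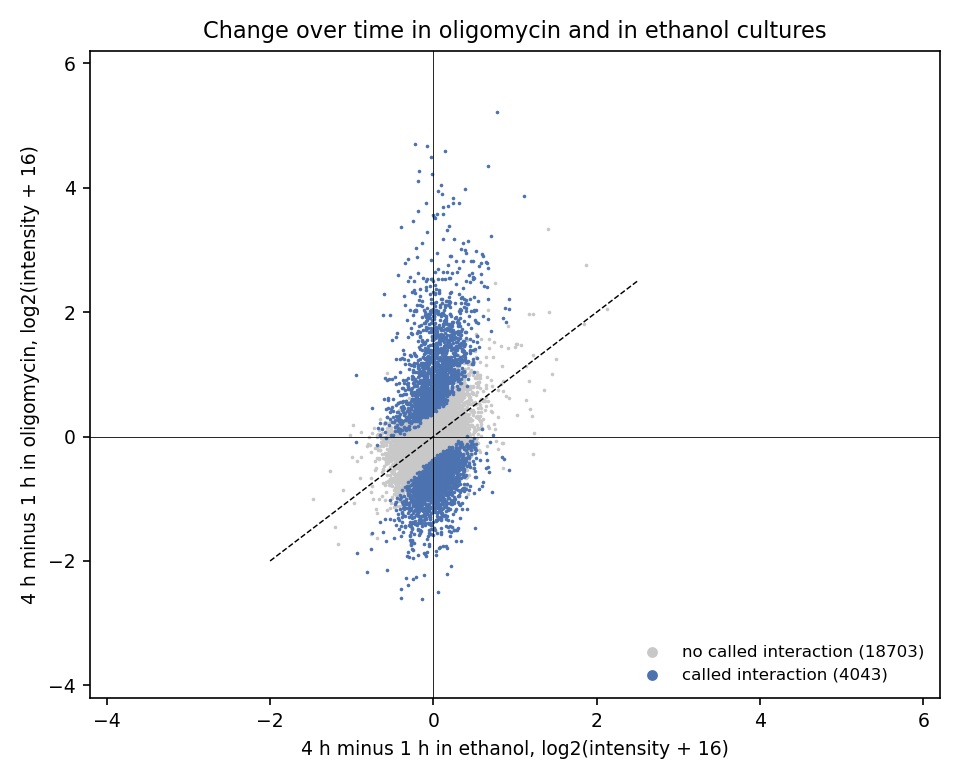
Change from 1 h to 4 h in oligomycin cultures (vertical axis) against the same change in ethanol cultures (horizontal axis) on the scale of log2(intensity + 16), for 22746 probe sets, with the dashed line where both are equal. The 4043 probe sets with a called interaction extend up and down the vertical axis and stay close to 0 on the horizontal one.

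Among probe sets with 1 gene name, the largest interaction was that of SBT3.5, a subtilisin-like protease and a late response. It read 1405, 1536 and 1557 in oligomycin and 27.1, 29.4 and 17.5 in ethanol at 4 h, against 42.5, 37.2 and 51.1 in oligomycin and 23, 34.5 and 22.9 in ethanol at 1 h. All 3 oligomycin arrays of 4 h were far above the other 9, the 1 h groups did not overlap either but lay close together, and the interaction was 4.75 ± 0.20 (SE, adjusted p = 9.65e-08). AT1G57630 was close to the floor of the array in the 9 other arrays, averaging 1.9 ± 0.557 in ethanol at 4 h, and read 395, 325 and 458 in oligomycin at 4 h (interaction 4.53). AT2G20720, AT1G26380 and the neighbouring code AT1G26390 followed with interactions of 4.44, 4.30 and 4.23. AT1G26380 averaged 1364 ± 37.4 in oligomycin and 25.6 ± 8.32 in ethanol at 4 h, against 64.2 ± 6.81 in oligomycin and 32.7 ± 15.8 in ethanol at 1 h (SD, n = 3). AT2G20720 was already higher at 1 h, with 35.8, 39.6 and 52.3 in oligomycin and 2.6, 2.6 and 1.8 in ethanol, and is a grown response. The other 7 of the 12 largest interactions among probe sets with 1 gene name, from 3.51 to 3.95, were those of AT4G39670, AT1G44130, AT1G22890, AT1G05340, AT3G01830, AT5G38900 and AT2G04070. In each of the 12 genes the oligomycin arrays of 4 h were above all 9 others. These genes were chosen by the size of the interaction in the same arrays, so this separation describes them and is no further support.

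**Figure D3:**
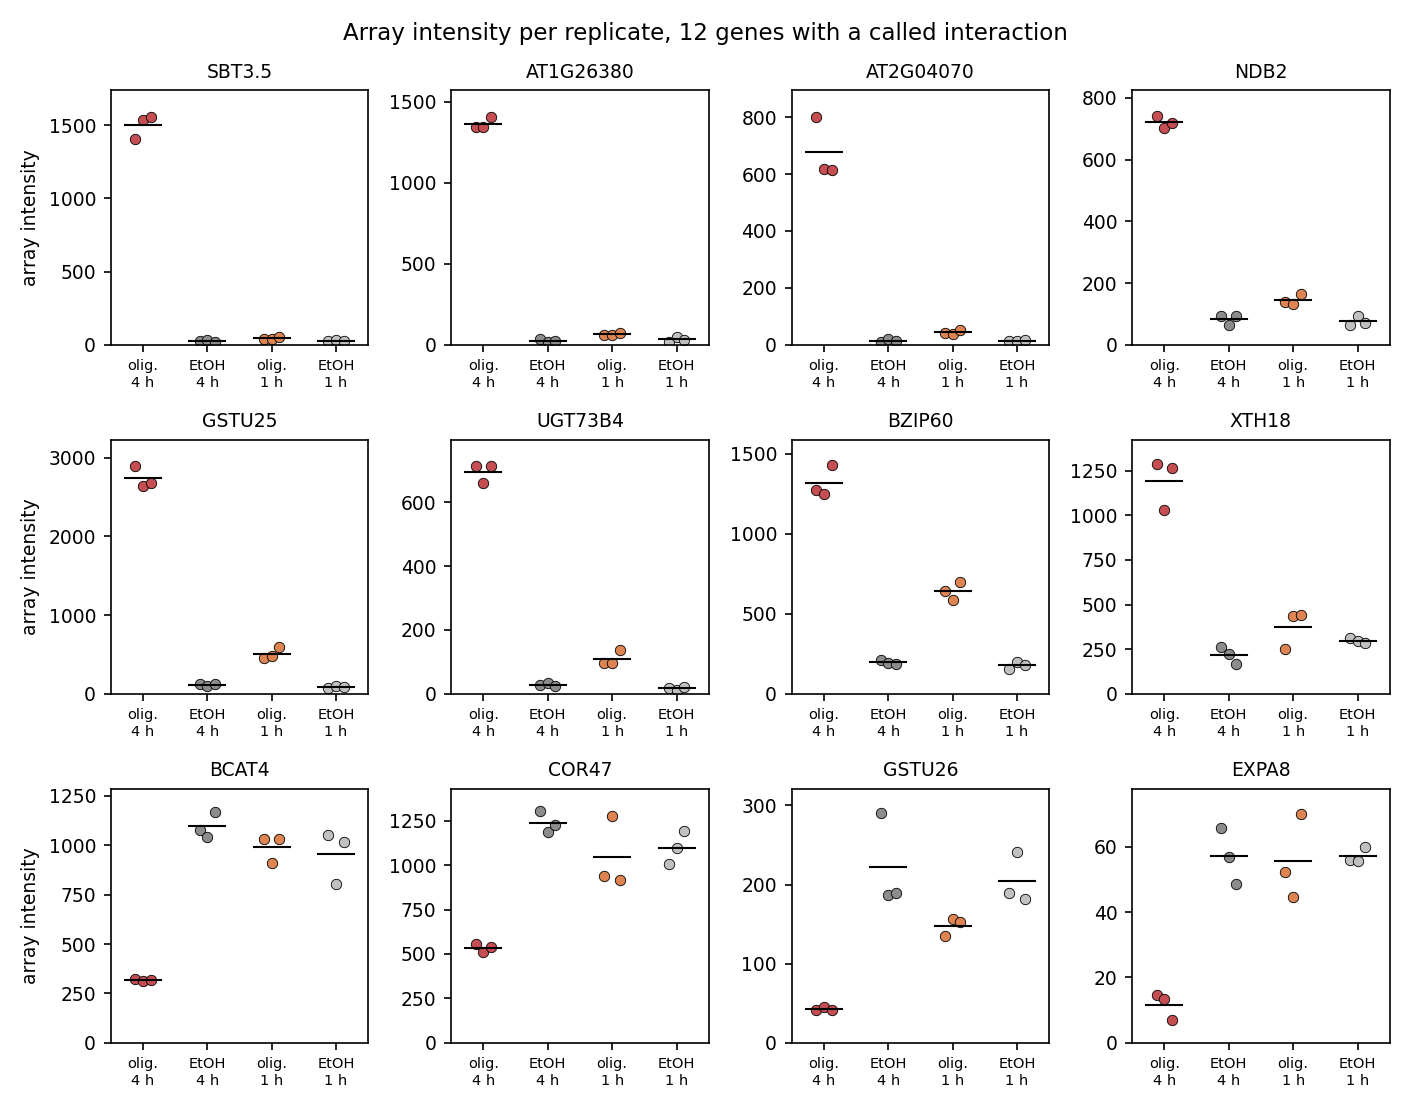
Array intensity (vertical axes, each from 0) of 12 genes with a called interaction, by group: oligomycin at 4 h, ethanol at 4 h, oligomycin at 1 h and ethanol at 1 h. Points are arrays and bars are means of 3; in the first 8 genes the oligomycin arrays of 4 h are the highest and in the last 4, BCAT4, COR47, GSTU26 and EXPA8, they are the lowest.

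In the mitochondrial dysfunction list, 13 of 22 listed genes were measured, and 11 had a called interaction above 0 and none below. Over all probe sets 7.2% were called above 0 and 10.6% below. The list median was 1.80, against −0.05 over all probe sets. All 13 had risen at 4 h and 12 at 1 h, against 11.4% and 2.3% of all probe sets. Their median effect was 3.44 at 4 h and 1.10 at 1 h. NDB2, an external NAD(P)H dehydrogenase of the inner mitochondrial membrane, read 742, 703 and 720.0 in oligomycin and 92.3, 65.3 and 91.6 in ethanol at 4 h, against 139.6, 131 and 163 in oligomycin and 64.9, 92.9 and 71 in ethanol at 1 h. The groups were separate at each time, the distance was wider at 4 h, and the interaction was 2.10 ± 0.19 (SE, adjusted p = 2e-05). NDB4, a related dehydrogenase, was at 2.6, 2.3 and 2.4 in ethanol at 4 h and reached 67.1, 73.1 and 80.1 in oligomycin there (interaction 1.71), while it read 8.7, 13.4 and 14.1 in oligomycin and 2.8, 1.6 and 4.2 in ethanol at 1 h. AT2G04070 averaged 677 ± 108 in oligomycin and 14.7 ± 4.53 in ethanol at 4 h, against 44 ± 6.33 in oligomycin and 14.3 ± 1.78 in ethanol at 1 h, and the nearby code AT2G04050 had an interaction of 2.93. AT5G09570 was a late response of the list: it rose at 4 h (effect 2.89), and its 1 h effect was 0.34, which was not called. The same list was also higher in the ethanol cultures at 4 h than at 1 h, by a median of 0.38, with no single change called.

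The other 2 genes of that list had no called difference between the times, and together with an autophagy gene they were picked after their values had been seen. AT2G41730, on a probe set that can detect further transcripts, read 4354, 4074 and 3877 in oligomycin and 229, 371 and 157 in ethanol at 4 h, against 1623, 1529 and 1811 in oligomycin and 68.1, 134 and 86.3 in ethanol at 1 h. Its effect was 4.01 at 4 h and 3.94 at 1 h, although the level itself was higher at 4 h in both kinds of culture. AT5G14730 had effects of 3.44 at 4 h and 2.98 at 1 h (interaction 0.45, adjusted p = 0.065), and the difference was called without the second ethanol replicate of 4 h (0.55, adjusted p = 0.028) or the first of 1 h (0.52, adjusted p = 0.0486). For ATG8E, which is coupled to autophagosome membranes, they were 2.62 and 2.12 (interaction 0.50, adjusted p = 0.201). Its relative ATG8H answered late instead: it averaged 344 ± 25 in oligomycin and 152 ± 32 in ethanol at 4 h, against 132 ± 9.22 in oligomycin and 127 ± 17.6 in ethanol at 1 h (SD, n = 3). Its interaction of 1.07 was the only called one among 11 autophagy genes (9.09%, against 17.8% of all probe sets), whose median was 0.15.

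Detoxification families held calls in both directions. Among 14 glutathione transferases, which attach glutathione to reactive compounds, 3 had a called interaction above 0 and 4 below, and 2 below after scaling to the hybridisation controls. The called share was 50%, against 17.8% of all probe sets (7.2% above 0 and 10.6% below). GSTU25 read 2899, 2635 and 2674 in oligomycin and 128, 99.2 and 119 in ethanol at 4 h, against 455, 486 and 588 in oligomycin and 71.7, 104 and 83.8 in ethanol at 1 h. It was a grown response with an interaction of 2.03 ± 0.19 (SE, adjusted p = 2.01e-05). GSTU26, which carries the next locus code, went the other way, with 42, 45 and 41.5 in oligomycin and 290.0, 186 and 189.5 in ethanol at 4 h, against 135, 157 and 153 in oligomycin and 189, 241 and 182 in ethanol at 1 h. The oligomycin arrays were the lower ones at both times, by an effect of −1.99 at 4 h and an uncalled −0.42 at 1 h, and the interaction was −1.57 (adjusted p = 0.000338). GSTU22 grew (1.21), with an effect of 3.02 already at 1 h. The other called members, added after their values were seen, were GSTF4 at 0.55, GSTU20 at −1.09, GSTU27 at −0.94 and GSTU16 at −0.76, all of them late. GSTU16 lost its call without the third ethanol replicate of 4 h (adjusted p = 0.0528) or the first oligomycin replicate of 1 h (adjusted p = 0.0551), with an interaction of −0.71 in both fits. Scaling to the hybridisation controls ended the calls of GSTU27 (−0.79, adjusted p = 0.0637) and GSTU16 (−0.64, adjusted p = 0.114), and quantile normalization that of GSTU16 (−0.63, adjusted p = 0.0624). GR1, a glutathione reductase, rose late as well (interaction 0.79).

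UDP-glycosyltransferases, which put sugars on small molecules, had 9 called interactions above 0 and 5 below among 51 measured genes, with a median of 0.06. Called members made up 27.5% of this family, against 17.8% of all probe sets (7.2% above 0 and 10.6% below). The calls below 0 were 2 in centred arrays and 1 after scaling to the hybridisation controls. They were also 2 without the third oligomycin replicate of 4 h or the first of 1 h, and 3 without any other array except the first oligomycin or ethanol replicate of 4 h (4 calls) or the second ethanol replicate of 1 h (5 calls). UGT73B4 read 714, 659 and 712 in oligomycin and 28.5, 32.7 and 24.8 in ethanol at 4 h, against 97.8, 97 and 136 in oligomycin and 19.6, 12.6 and 22.2 in ethanol at 1 h. It had risen by 1 h, rose further by 4 h and had an interaction of 2.11 ± 0.19 (SE, adjusted p = 1.9e-05). UGT73B5 showed the same order of groups, averaging 738 ± 81.1 in oligomycin and 48.8 ± 5.04 in ethanol at 4 h, against 168 ± 23.7 in oligomycin and 30.2 ± 6.66 in ethanol at 1 h, and had an interaction of 1.54, while UGT73C1 was a late response (1.58). A tally by family, made after the values were seen, put 6 of the 7 measured genes of family 73 among the rises and none among the falls: the other called ones were UGT73C7 (1.44), UGT73D1 (1.07) and UGT73B1 (0.68). UGT73B1 lost its call without the third replicate of oligomycin or of ethanol at 4 h, or the first or second of oligomycin at 1 h, at interactions of 0.59 to 0.65. Family 71 held both signs, and UGT71B6 and UGT71B1, with nearby codes on chromosome 3, were opposed. UGT71B6 averaged 34.1 ± 6.5 in oligomycin and 1.5 ± 0.200 in ethanol at 4 h (interaction 1.43), and UGT71B1 33.3 ± 7.25 in oligomycin and 102 ± 3.66 in ethanol at 4 h (interaction −1.15). Cytochromes P450 also held calls on both sides, 3 above 0 and 3 below among the 22 measured of 240 listed (27.3% called, against 17.8% of all probe sets). CYP71B6 was late and above 0 (2.28 ± 0.21), CYP84A4 had grown (1.31), and CYP71B26 was late and below 0 (−1.83), averaging 16.3 ± 2.13 in oligomycin and 104 ± 18.8 in ethanol at 4 h.

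Genes of the early answer to touch, wounding and elicitors had more called rises at 4 h than at 1 h. With only 1 h and 4 h sampled, the time of their highest level cannot be placed. Of 34 listed, 10 were measured, and 6 of these had a called interaction above 0 and none below, with a median of 1.15. Over all probe sets 7.2% were called above 0. Of the 10, 1 had risen at 1 h and 8 at 4 h, against 2.3% and 11.4% of all probe sets. WRKY53, a transcription factor of senescence and defence, read 146, 149.8 and 144 in oligomycin and 23.8, 28.6 and 30.7 in ethanol at 4 h, against 38.9, 39 and 32.4 in oligomycin and 18.5, 26.2 and 28.8 in ethanol at 1 h. The 1 h groups were separate by a small distance (effect 0.39, not called) and the interaction was 1.51 ± 0.15 (SE, adjusted p = 3.72e-05). CML37, a calmodulin-like calcium sensor, read 49.8, 63.9 and 65.9 in oligomycin and 9.3, 8.9 and 7.1 in ethanol at 4 h, and its 1 h groups overlapped (interaction 1.52). AT5G37490 had the largest interaction of the list, 1.93, and the ubiquitin ligases PUB24 and PUB23, added after their values were seen, had 1.26 and 1.03. WRKY6, the one member called at 1 h, was a grown response (1.40), and WRKY22 a late one (0.86). WRKY53, WRKY6 and WRKY22 were the 3 called among 7 measured WRKY genes of 72 listed. That is 42.9% of the 7, against 17.8% of all probe sets, and their median was 0.03.

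Falls that appeared between 1 h and 4 h were smaller than rises. Since whole seedlings were measured, a lower share of a cell type and less transcript per cell cannot be told apart. AT3G54400 had the largest among named genes, with an interaction of −2.05 ± 0.17 (SE, adjusted p = 1.02e-05) and 107 ± 16 in oligomycin and 515 ± 30.2 in ethanol at 4 h, against 658 ± 79.1 in oligomycin and 687 ± 76 in ethanol at 1 h. BCAT4, an aminotransferase of the synthesis of methionine-derived glucosinolates, read 321, 311 and 318 in oligomycin and 1076, 1043 and 1169 in ethanol at 4 h, against 1034, 912 and 1029.8 in oligomycin and 1051, 803 and 1016 in ethanol at 1 h. Its 3 oligomycin arrays at 4 h lay close together and far below the 9 others, and the groups of 1 h overlapped (interaction −1.80 ± 0.15, adjusted p = 9.66e-06). The 12 largest among probe sets with 1 gene name also held AT2G28080, which turned and is described below, then AT5G28500, AT1G29660, AT5G20700, CYP71B26, AT1G33811, AT3G22550, AT1G14960, DRT100 and AT5G46230, from −1.97 to −1.63. AT1G14960 was the only grown response among these 12: it fell by an effect of −0.93 at 1 h and of −2.68 at 4 h. AT5G28500 was the nearest to turning, since at 1 h its oligomycin arrays were above the ethanol ones, 533, 514 and 447 against 395, 299.6 and 378, an effect of 0.47 that was not called (adjusted p = 0.221). Among the grown falls were AT2G41800 (−1.61), AT3G20370 (−1.38), AT1G72200 (−1.30) and GH9C2, a glycosyl hydrolase of the family of cellulases (−1.23).

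Genes that loosen or rebuild the cell wall held called interactions on both sides. Of 14 expansins 2 (14.3%) had a called interaction, both below 0, against 17.8% of all probe sets called and 10.6% called below 0, and the median was −0.41. Without the first ethanol replicate of 1 h 4 were called. EXPA8 read 14.5, 13.3 and 7.1 in oligomycin and 65.6, 57 and 48.6 in ethanol at 4 h, against 52.4, 44.5 and 70.1 in oligomycin and 56, 55.7 and 59.8 in ethanol at 1 h. The oligomycin arrays of 4 h were the lowest 3, the other groups overlapped, and the interaction was −1.36 ± 0.20 (SE, adjusted p = 0.000605). EXPA9 was the second (−0.90), and its call was lost without the first oligomycin replicate of 1 h (−0.79, adjusted p = 0.0515). Xyloglucan endotransglucosylases, which cut and rejoin wall xyloglucan, had 2 called on each side among 10 (40% called, against 17.8% of all probe sets). XTH18 read 1285, 1029 and 1265 in oligomycin and 265, 221 and 167 in ethanol at 4 h, against 249, 436 and 444 in oligomycin and 313, 295 and 282 in ethanol at 1 h. It rose late, by 2.39 at 4 h, with an interaction of 2.10 ± 0.29 (SE, adjusted p = 0.00034), and the first oligomycin replicate of 1 h was below the ethanol arrays of that time while the other two were above. XTH29 was also above 0 (0.85), and XTH32 (−0.79) and XTH16 (−0.76, added after its values were seen) below. Among 8 cellulose synthase and related genes CSLC04 was a called fall (−0.55), one of 2, and the median was −0.22. The called share was 25%, against 10.6% of all probe sets called below 0. The calls were 1 without the second oligomycin replicate of 4 h, the first or the third ethanol replicate of 4 h, the first or the second oligomycin replicate of 1 h, or the first ethanol replicate of 1 h. Scaling to the hybridisation controls ended the calls of EXPA9 (−0.77), XTH32 (−0.64), XTH16 (−0.61) and CSLC04 (−0.40).

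Of the other lists tied to growth and light, ribosome biogenesis and the nuclear photosystem list had called shares near the 17.8% of all probe sets. In ribosome biogenesis 2 of 12 (16.7%) were called, both below 0, the RNA helicase PRH75 (−0.66) and AT3G15460 (−0.80), and the median was −0.33, or −0.19 after scaling to the hybridisation controls. Without the first ethanol replicate of 1 h 4 were called. In the nuclear photosystem and antenna list 1 of 7 (14.3%) was called, the antenna protein LHCB4.2, which averaged 379 ± 4.62 in oligomycin and 618 ± 101 in ethanol at 4 h, against 814 ± 57.7 in oligomycin and 758 ± 73.5 in ethanol at 1 h, and all 7 interactions were below 0, with a median of −0.40, or −0.25 after scaling to the hybridisation controls. Without the second ethanol replicate of 1 h 2 of the 7 were called. The median of 69 genes of the chloroplast genome was 0.11, and none was called with the deposited values and 3, all above 0, after centring or without the second ethanol replicate of 1 h. Without the second oligomycin replicate of 4 h 2 were called, and 1 without the first oligomycin or second ethanol replicate of 4 h or the third oligomycin replicate of 1 h. GIGANTEA (GI), a clock component and the only measured gene of that list, had −0.49. LHCB4.2 was at −0.62 and GI at −0.35, both without a call, after scaling to the hybridisation controls. Of 12 auxin-induced genes 3 (25%) were called, against 17.8% of all probe sets. GH3.17, which joins auxin to amino acids, was lower at both times and more so at 4 h (−1.32), while IAA30 (0.74) and IAA18 (0.52) were above 0.

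Among the measured genes of the mitochondrial genome and of nuclear respiration lists, called interactions lay mainly in the former and in a pair of nuclear alternative dehydrogenases. Differences between the lists were not tested. The mitochondrial genome list was taken by genome, so it is not limited to respiratory genes, and 16 of its 284 genes were measured. The mitochondrial genome list had 8 called interactions above 0 and none below among 16 measured genes (50%), with a median of 0.65. Over all probe sets 7.2% were called above 0. Calls of the list numbered 6 to 9 with an array left out, 5 at a threshold of 0.01 and 3 with a minimum log2 change of 1. Its genes were dim, with a median intensity of 39.8. Of the 16, 12 had risen at 4 h and 1 at 1 h, against 11.4% and 2.3% of all probe sets. The transcript of cox2, a subunit of cytochrome c oxidase, read 98.3, 101 and 94.9 in oligomycin and 20.5, 24 and 23.4 in ethanol at 4 h, against 30.7, 30.1 and 22.3 in oligomycin and 25, 32.7 and 22.7 in ethanol at 1 h. The groups of 1 h overlapped, the oligomycin arrays of 4 h were higher than all others, and the interaction was 1.53 ± 0.15 (SE, adjusted p = 3.04e-05). Probe sets for nad6 and nad5, subunits of complex I that can detect further transcripts, had 1.64 and 1.18. Nuclear subunits of the same complexes had few calls: the ATP synthase, which oligomycin inhibits, had no call among 5 nuclear subunits (median −0.19), complexes II to IV with cytochrome c none among 18 (−0.09), and complex I 1 among 17 (−0.12), a call below 0 that was kept only without the second oligomycin replicate of 4 h, the first ethanol replicate of 4 h or the second ethanol replicate of 1 h among the left-out arrays. With the arrays centred or scaled to the hybridisation controls the medians became 0.00 and 0.04 for complex I and 0.03 and 0.07 for complexes II to IV, so no direction can be given for them. Of the 14 listed genes of alternative respiration 5 were measured, all of them dehydrogenases. NDB2 and NDB4 were called (40%, against 17.8% of all probe sets), and NDB1, NDB3 and NDC1 were not.

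**Figure D4:**
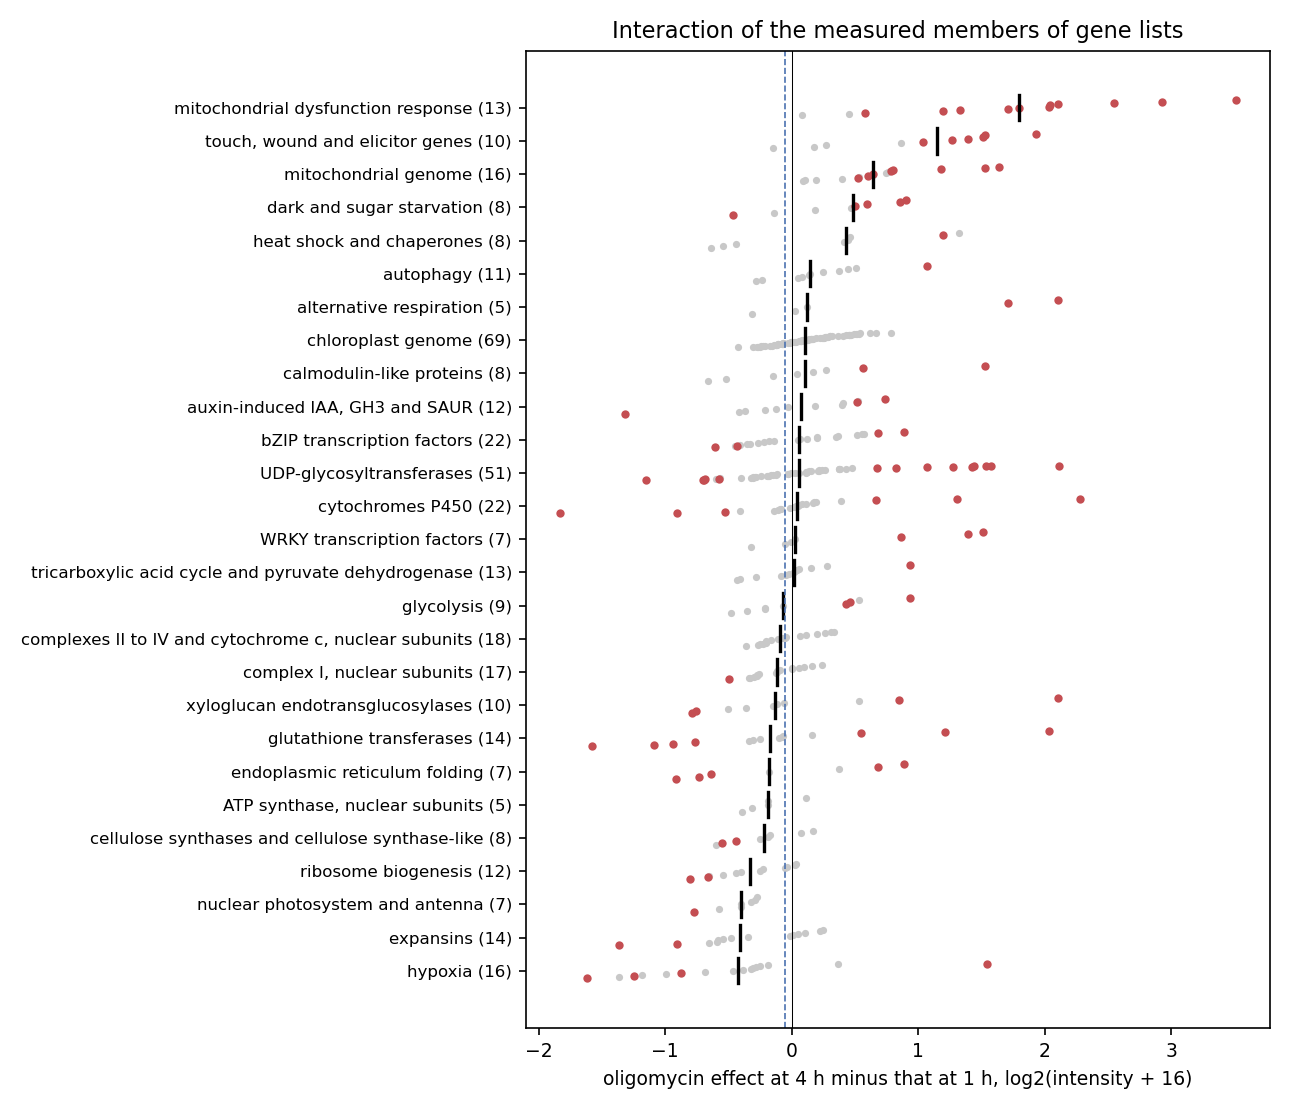
Interaction (horizontal axis, log2 scale) of the measured members of the gene lists with at least 5 of them, one line per list with the number measured in brackets. Red points have a called interaction and grey ones do not, black bars are list medians and the dashed line is the median of all 22746 probe sets; the mitochondrial dysfunction list has the highest median, 1.80, and the hypoxia list the lowest, −0.43.

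Central carbon metabolism changed in single genes. Glycolysis had 3 called of 9 (33.3%), against 17.8% of all probe sets called and 7.2% called above 0. All 3 were above 0: AT5G56350 (0.94), triose phosphate isomerase TPI (0.46) and AT5G42740 (0.43). AT5G42740 kept its call in 2 of the 12 fits with an array left out, those without the second ethanol replicate of 4 h or the second oligomycin replicate of 1 h, and its values ran from 0.37 to 0.51. Its call was also lost after quantile normalization (adjusted p = 0.0672) and with a pseudocount of 1 (adjusted p = 0.0877). The list median of −0.07 was 0.05 in centred arrays. In the tricarboxylic acid cycle and pyruvate dehydrogenase list AT4G26910 rose late (0.94) and was the only call among 13 (7.69%, under the 17.8% of all probe sets). A further 1 was called below 0 without the third oligomycin or the second ethanol replicate of 4 h. Genes of darkness and sugar starvation were divided, with 4 called above 0 and 1 below of 8 (62.5% called, against 17.8% of all probe sets). ETFQO, an electron carrier between amino acid catabolism and ubiquinone, rose at 4 h and not at 1 h (0.90), and AKINBETA1, a subunit of the energy sensor kinase SnRK1, had grown (0.59).

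Both subunits of one enzyme of leucine breakdown, 3-methylcrotonyl-CoA carboxylase, parted after 1 h. MCCA read 408, 448 and 436 in oligomycin and 140.3, 136 and 89.1 in ethanol at 4 h, against 187, 171 and 245 in oligomycin and 98.2, 109.5 and 99.9 in ethanol at 1 h. MCCB, taken up here because it was called in the other direction, read 179, 187 and 169.6 in oligomycin and 176, 197 and 161 in ethanol at 4 h, against 215, 233 and 238 in oligomycin and 159, 155 and 168 in ethanol at 1 h. In both genes oligomycin was above ethanol at 1 h, by 0.86 in MCCA and 0.47 in MCCB. At 4 h the effect was 1.72 in MCCA, while the arrays of MCCB overlapped with an effect of 0.00, and the interactions were 0.86 (adjusted p = 0.0164) and −0.47 (adjusted p = 0.0228). MCCB lost its call without the third oligomycin replicate of 4 h (−0.43, adjusted p = 0.0596) or without the second (−0.45, adjusted p = 0.0505) or the third (−0.44, adjusted p = 0.0554) of 1 h, and after centring (−0.35) or scaling to the hybridisation controls (−0.32). IVD, an enzyme of the preceding step, was not called (0.47, adjusted p = 0.133) except without the first ethanol replicate of 1 h (0.60, adjusted p = 0.0478).

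The list for protein folding in the endoplasmic reticulum held calls in both directions, 2 above 0 and 3 below among 7 measured genes. That is 71.4%, against 17.8% of all probe sets. BZIP60 and BZIP28, transcription factors of the unfolded protein response of the endoplasmic reticulum, had called interactions of 0.89 and 0.68. BZIP60 read 1271, 1247 and 1431 in oligomycin and 213, 192 and 184 in ethanol at 4 h, against 644, 587 and 698 in oligomycin and 156, 202 and 178 in ethanol at 1 h, so that it had risen at 1 h and stood higher at 4 h. BZIP28 rose at 4 h (effect 0.65), and its 1 h effect was −0.03. The 3 called below 0 were AT5G07340 (−0.91), the calreticulin CRT1b (−0.73) and ATERDJ3B (−0.64, added after its values were seen), and the last lost its call after scaling to the hybridisation controls (−0.49, adjusted p = 0.0974). The other members, BZIP17 and DER2.1, had no called interaction (−0.18 and 0.37). CRT1b averaged 302 ± 17 in oligomycin and 729 ± 66.8 in ethanol at 4 h, against 550.3 ± 31.3 in oligomycin and 779.8 ± 12.3 in ethanol at 1 h. A pair of dehydrins, proteins of dehydration and cold, held 1 call on each side. LTI30 was late and above 0, averaging 448 ± 30.4 in oligomycin and 96.8 ± 15.9 in ethanol at 4 h, against 122 ± 6.45 in oligomycin and 94.6 ± 14.8 in ethanol at 1 h, and COR47 was late and below 0, reading 555, 508 and 539 in oligomycin and 1307, 1184 and 1227 in ethanol at 4 h, against 939.5, 1277 and 918 in oligomycin and 1004, 1097 and 1189 in ethanol at 1 h (interactions 1.72 and −1.11).

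In the hypoxia list 4 of 16 (25%) had a called interaction, 1 above 0 and 3 below, against 17.8% of all probe sets, and the median was −0.43. The calls below 0 rested on single arrays. They were 0 without the first or the third oligomycin replicate of 4 h, the second ethanol replicate of 4 h, the third oligomycin replicate of 1 h or the first ethanol replicate of 1 h. They were 1 without the first or the third ethanol replicate of 4 h or the second oligomycin replicate of 1 h, and 5 without the second ethanol replicate of 1 h. Centred arrays left 1 of the calls below 0 and hybridisation-control scaling none, with medians of −0.31 and −0.27. AT4G17260 was the one above: it read 1482, 1389 and 1509 in oligomycin and 136, 232 and 181 in ethanol at 4 h, against 392, 389.9 and 465 in oligomycin and 141, 125 and 192 in ethanol at 1 h (interaction 1.55 ± 0.25, adjusted p = 0.000967) and was a grown response. The level of the list in ethanol was higher at 4 h than at 1 h, by a median of 0.41 with no call. AT2G17850 averaged 159 ± 43.5 in oligomycin and 561 ± 141 in ethanol at 4 h, against 305 ± 35.7 in oligomycin and 383 ± 269.5 in ethanol at 1 h. Its ethanol arrays of 1 h ranged widely, 174, 687 and 287, and its call (−1.62, adjusted p = 0.0494) was lost without any single array other than the second oligomycin replicate of 4 h or the second ethanol replicate of 1 h. Its value ran from −2.13 to −1.19 over the 12 fits with an array left out. Heat shock genes were likewise higher in ethanol at 4 h than at 1 h, by a median of 0.82 with no call. A called interaction was found in 1 of 8 (12.5%, against 17.8% of all probe sets), AT5G51440 (1.19), also a member of the mitochondrial dysfunction list. Its call was lost without any one oligomycin array of 4 h, the first or the third ethanol array of 4 h, or the first or second oligomycin array of 1 h, at interactions of 1.06 to 1.22.

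Among the 14 probe sets that turned, 10 had 1 gene. AT3G13650 had the largest turn above 0 and read 574, 486 and 541 in oligomycin and 239, 207 and 252 in ethanol at 4 h, against 115, 134 and 118 in oligomycin and 267, 175 and 265 in ethanol at 1 h. Oligomycin arrays were the lower ones at 1 h and the higher ones at 4 h with no overlap at either time, the ethanol groups overlapped, and the effects were 1.15 at 4 h and −0.84 at 1 h (interaction 1.99 ± 0.20, adjusted p = 3.97e-05). It turned under all 24 alternatives. AT1G64290 and AT1G17310 turned the same way at low levels, with interactions of 1.66 and 1.41. AT3G04010 read 105, 104 and 118 in oligomycin and 78.4, 51.6 and 64.5 in ethanol at 4 h, against 52.6, 38.8 and 43.9 in oligomycin and 76.4, 86.1 and 70.1 in ethanol at 1 h (interaction 1.26). SGP1 averaged 172 ± 14.3 in oligomycin and 101 ± 10.8 in ethanol at 4 h, against 63.2 ± 3.76 in oligomycin and 87.6 ± 4.53 in ethanol at 1 h (interaction 1.07).

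The turns below 0 were genes that stood higher in oligomycin at 1 h and lower at 4 h. AT2G28080 read 68.8, 100.2 and 104 in oligomycin and 211, 294 and 283 in ethanol at 4 h, against 259, 297 and 281 in oligomycin and 178, 159 and 197 in ethanol at 1 h. The groups did not overlap at either time, the ethanol cultures were higher at 4 h than at 1 h without a call, and the effects were −1.38 at 4 h and 0.60 at 1 h (interaction −1.99 ± 0.21, adjusted p = 5.38e-05). AT5G41140 was opposed at a low level, averaging 8.87 ± 2.41 in oligomycin and 32.9 ± 5.21 in ethanol at 4 h, against 43 ± 3.32 in oligomycin and 25.2 ± 3.96 in ethanol at 1 h (interaction −1.49). AT2G28200 read 56.6, 53.3 and 67.3 in oligomycin and 84.7, 77.5 and 109 in ethanol at 4 h, against 139, 151 and 163 in oligomycin and 95.1, 98.8 and 101 in ethanol at 1 h (interaction −1.04, adjusted p = 0.000834). The interaction of each of the 8 turned genes named here kept its call whichever array was left out. The early part of the turn was weaker: AT2G28080 and SGP1 were still placed among the turns in 2 of the 12 fits with an array left out, AT3G04010, AT1G17310, AT5G41140 and AT2G28200 in 8, AT1G64290 in 9 and AT3G13650 in all 12. The turned probe sets with 1 gene that are not named here were placed there in 2 and 3 of these fits.

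Faded responses numbered 44 probe sets, against the 14 that turned. Of the 25 whose interaction was above 0, so that a fall at 1 h was gone at 4 h, 11 had no group mean reaching 16, the amount added before the log, and the 19 with a lost rise held 2 such probe sets. ATPMEPCRB, a pectin methylesterase, read 188, 160.1 and 154 in oligomycin and 139, 148 and 134 in ethanol at 4 h, against 258, 281 and 276 in oligomycin and 119.8, 118 and 137 in ethanol at 1 h. Oligomycin had raised it by 1.03 at 1 h, and at 4 h the groups were still separate with an effect of 0.23 that was not called (interaction −0.80 ± 0.13, adjusted p = 0.00125). AT2G44380 read 84.1, 86.8 and 92.7 in oligomycin and 87.5, 87.7 and 119 in ethanol at 4 h, against 224, 157 and 200.3 in oligomycin and 93.5, 94.8 and 111 in ethanol at 1 h. Its 1 h oligomycin arrays were the highest 3 and the other groups overlapped (interaction −0.97). AT3G46700 kept its place among the fading genes under all 24 alternatives and averaged 27.9 ± 7.53 in oligomycin and 37.4 ± 5.78 in ethanol at 4 h, against 57 ± 15.5 in oligomycin and 19.1 ± 5.08 in ethanol at 1 h (interaction −1.34). AT5G52670 had the largest fading below 0 among probe sets with 1 gene name, −1.35, and AT5G14120 and AT5G62280 had −0.75 and −0.78. AT2G44380, AT5G14120 and AT5G62280 lost the call, at −0.84, −0.59 and −0.65, after scaling to the hybridisation controls. On the other side AT4G00700 read 51.3, 53.2 and 55.4 in oligomycin and 40.8, 44.2 and 49.1 in ethanol at 4 h, against 32.1, 30.1 and 31.2 in oligomycin and 57.8, 76 and 57.7 in ethanol at 1 h. It had fallen at 1 h by an effect of −0.75, and at 4 h it was slightly higher in oligomycin without a call (0.19).

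**Figure D5:**
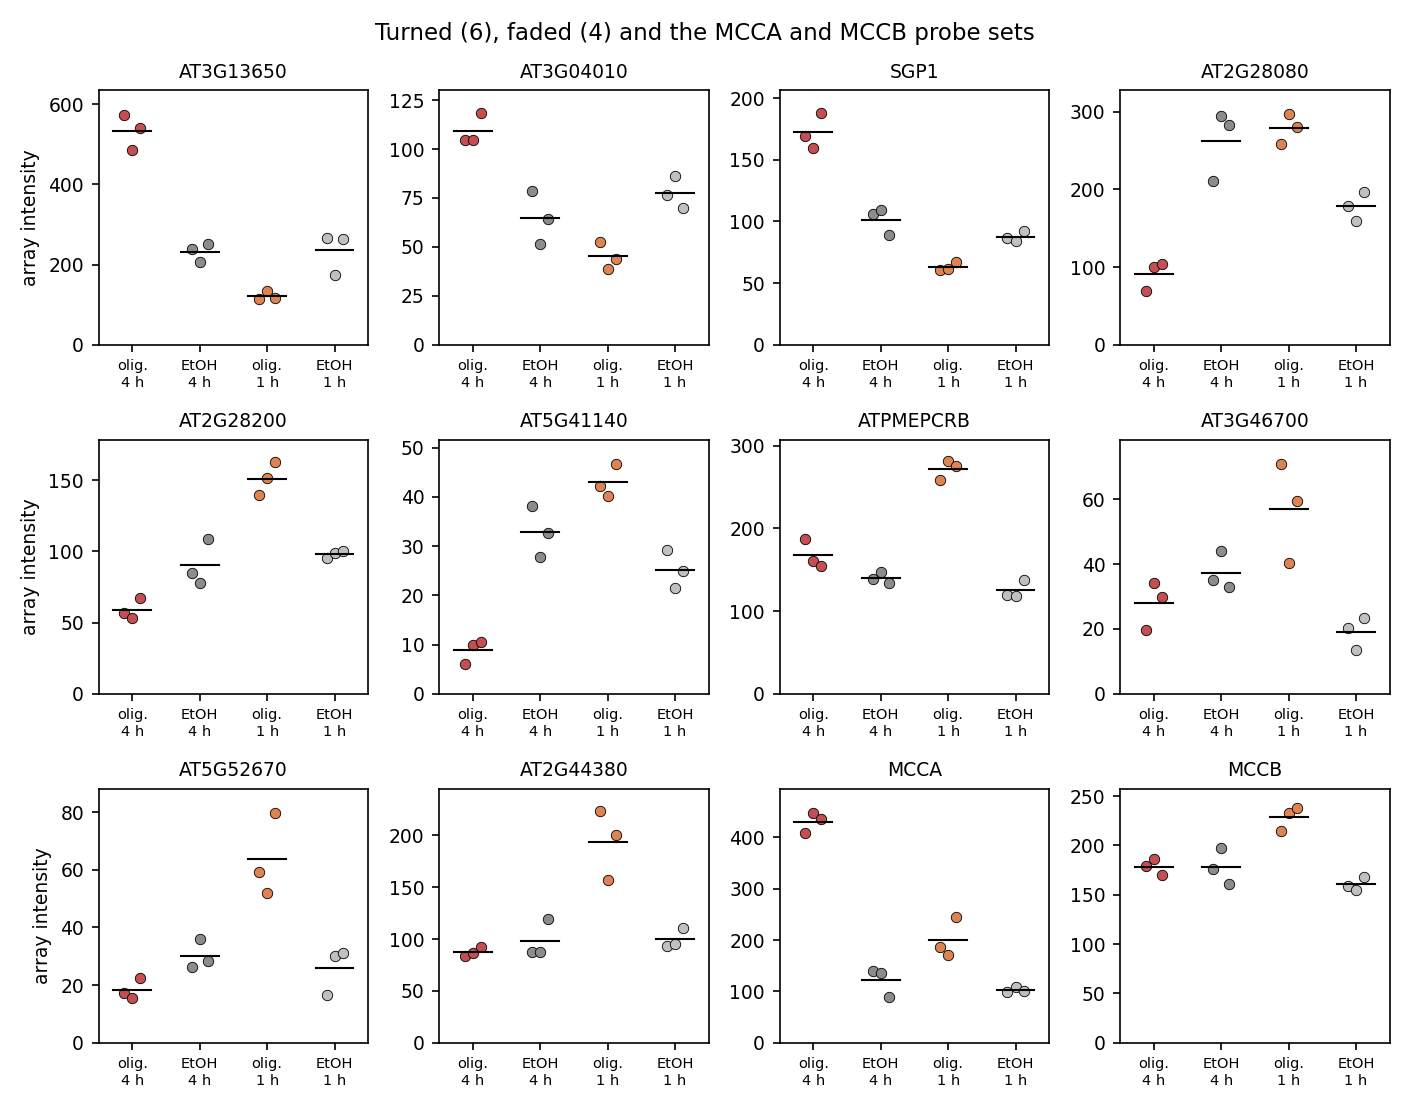
Array intensity (vertical axes, each from 0) by group, oligomycin at 4 h, ethanol at 4 h, oligomycin at 1 h and ethanol at 1 h, for 6 genes that turned, 4 that faded, MCCA and MCCB. Points are arrays and bars are means of 3; in AT3G13650, AT3G04010 and SGP1 oligomycin is above ethanol at 4 h and below it at 1 h, and in AT2G28080, AT2G28200 and AT5G41140 the order is the opposite.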

How the data were processed

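Transcripts of whole Arabidopsis seedlings were measured on 12 arrays of one type, 3 labelled biological replicates in each of 4 groups. The authors deposited linear intensity values per probe set. RMA is named in the submitters' processing notes, with no version given in the sources used here. Since the values run from 0 to 6149.7, hold 166 zeros and share a 2% trimmed mean of 100.008 to 100.009, they do not have the form RMA commonly gives, and how they were made is not known here. No background, batch or scan data were used here.

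Of 22810 probe sets, 64 controls were left out. Of the 22746 tested, 13513 carried 1 gene in the platform table (13436 matched a gene table of TAIR10.1, used for names only), 503 several and 8730 none, and only the first kind is named. Intensities became log2(intensity + 16), and limma 3.58.1 in R 4.3.3 fitted 4 group means with moderated two-sided tests, Benjamini-Hochberg adjustment and a threshold of 0.05. Nothing says that replicates came from separate seed lots or days, so p-values measure the spread between these samples. The fit was tested on simulated data.

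Named genes were the 12 largest called interactions on each side, the 5 largest per class and direction, up to 3 called members per list and any respiration gene, and exceptions are stated. For gene lists, written from general knowledge, the brightest probe set stood for a gene. Listed genes without a probe set of 1 gene name were not measured, so most lists were measured only in part. Contrast, lists and rules were chosen with earlier results of these data known. The labels do not say whether the same replicate number marks a pair. Deviations from the group means correlated with r between −0.09 and 0.17 for arrays with the same number. For arrays with different numbers r lay between −0.17 and 0.12. Alternatives were a replicate block, a trended robust prior, array weights, 3 scalings, a filter on dim probe sets, 2 pseudocounts, 2 thresholds, a test without moderation, and fits lacking 1 array each. Promoter motifs were planned and not run, since promoter sequences were not used here.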

Additional observations from a re-analysis of the deposited data

Results flagged for a closer look

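The effect of oligomycin differed between 4 h and 1 h, by limma's test of the difference itself with an adjusted p under 0.05, in 1637 probe sets above 0 and in 2406 below 0. In 8 named genes the called effects at the 2 times had opposite directions, and the difference between them was itself called. Those with oligomycin above ethanol at 4 h and below it at 1 h were AT3G13650 (interaction 1.99), AT1G64290 (1.66), AT1G17310 (1.41), AT3G04010 (1.26) and SGP1 (1.07). Those with the opposite order were AT2G28200 (−1.04), AT5G41140 (−1.49) and AT2G28080 (−1.99). At both times the 3 oligomycin arrays of each of these 8 genes lay outside the range of the 3 ethanol arrays. The genes were chosen because both effects were called, so this separation is no further support. AT2G28080 and SGP1 were still placed among the turns in 2 of the 12 fits with an array left out. The turned probe sets with 1 gene that are not named were placed there in 2 and 3 of these fits.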

How the results depend on the processing

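Main counts were 1637 probe sets above 0 and 2406 below 0, with 377 grown, 3496 late, 44 faded and 14 turned. Counts below 0 depended on scaling, at 1497 after centring on array medians (28 faded) and 829 after scaling to the hybridisation controls (244 grown, 2064 late, 22 faded, 8 turned), and centring kept all 1637 calls above 0. A threshold of 0.01 left 1064 above 0 and 1133 below 0 (191 grown, 1963 late, 8 faded, 2 turned), and a minimum log2 change of 1 left 761 and 387 (232 grown, 903 late, 2 faded). Array weights gave 70 faded and 25 turned, a pseudocount of 1 gave 231 grown and 7 turned, and the ordinary test gave 6 turned. Leaving out 1 array gave 1397 to 1645 above 0, 1830 to 2372 below 0, 241 to 389 grown, 2782 to 3535 late, 17 to 67 faded and 3 to 15 turned. The cause of these shifts was not tested beyond the construction of each alternative.

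The replicate block was fitted although the labels do not say that the numbers pair the samples. It gave 1619 above 0 and 2282 below 0, of which 1531 and 2148 were also called without it, and changed no class count by over 1.5 times. Among genes named it ended the call of AT5G42740 (adjusted p = 0.0676) and no other, and calls below 0 numbered 5 in the hypoxia list and 3 in UDP-glycosyltransferases. Among the 111 called genes named in the text none changed direction. They lost the call in 37 of 1332 fits with an array left out and in 93 of 1322 other fits, the stricter thresholds included. The uncalled AT2G41730 had an interaction below 0 with array weights (−0.039), quantile normalization (−0.082) and a pseudocount of 1 (−0.042), and without the third ethanol replicate of 4 h or the second of 1 h (−0.20 and −0.15), in a range of −0.20 to 0.38 over the left-out arrays. The 3 arrays per group, and dim probe sets near the pseudocount, limit what could be called.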

Other observations

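Calmodulin-like proteins, calcium sensors, had 2 called interactions above 0, CML37 and CML42, and none below among 8 measured genes. That is 25%, against 17.8% of all probe sets, and the median was 0.11. A further 1 was called below 0 without the first oligomycin or ethanol replicate of 4 h or the second oligomycin replicate of 1 h. CML42 averaged 234 ± 26 in oligomycin and 109 ± 10.2 in ethanol at 4 h, against 142 ± 11.1 in oligomycin and 100.3 ± 3.2 in ethanol at 1 h (SD, n = 3), with an interaction of 0.56. Among 22 bZIP transcription factors 4 were called, a share near the 17.8% of all probe sets: 2 above 0, BZIP60 and BZIP28, and 2 below, BZIP61 and bZIP19, with a median of 0.06, and neither of the calls below 0 was kept after scaling to the hybridisation controls. The calls below 0 were also 1 without the third oligomycin or the first ethanol replicate of 4 h, the second or the third oligomycin replicate of 1 h or the first ethanol replicate of 1 h. AT2G04400, the only measured gene of the list for tryptophan and camalexin synthesis, read 649, 564 and 588 in oligomycin and 402, 332 and 296 in ethanol at 4 h, against 249, 244 and 213 in oligomycin and 285, 263 and 305 in ethanol at 1 h. The oligomycin arrays were the highest 3 at 4 h and the lowest 3 at 1 h, where the effect of −0.26 was not called, and the interaction was 1.04 (limma adjusted p = 0.000883). Among grown responses outside the 12 largest, AT3G09405 read 926, 883 and 987 in oligomycin and 43.6, 44.6 and 46.3 in ethanol at 4 h and 81, 77.9 and 86 in oligomycin and 38.6, 57.6 and 49.2 in ethanol at 1 h (interaction 3.35). AT1G74870 had an interaction of 3.15 and was grown as well.

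About as many called interactions could not be named as could: 2017 of the 4043 lay on probe sets without a single gene name in the tables used, 786 above 0 and 1231 below. They included the largest of all on either side. Probe set 258277_at read 1767, 1596 and 1567 in oligomycin and 25.8, 56.2 and 22.2 in ethanol at 4 h, against 64.2, 43.2 and 38.5 in oligomycin and 31.8, 60.1 and 35.1 in ethanol at 1 h, with an interaction of 4.93, and probe set 254687_at averaged 72.5 ± 8.53 in oligomycin and 559 ± 45 in ethanol at 4 h, against 488 ± 73.8 in oligomycin and 538 ± 30.2 in ethanol at 1 h, with −2.56.

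Control probe sets of the plant's own RNA were not tested. The one for 25S ribosomal RNA read 2493, 2417 and 2409 in oligomycin and 1535, 1728 and 1769 in ethanol at 4 h, against 1977, 1811 and 2087 in oligomycin and 1614, 1495 and 1785 in ethanol at 1 h. Its effects were 0.54 at 4 h and 0.26 at 1 h, an interaction of 0.28. The 3 control probe sets for GAPDH had interactions of 0.36 to 0.63 and the 3 for actin of −0.35 to 0.20, and their part in the counts was not tested.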
